A study of Homo sapiens with 8 samples.

Results

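The metallothionein genes of human osteosarcoma cells were followed through 4 treatments, together with the transcription factor that switches them on (MTF1) and the zinc exporter SLC30A1, which served as a control for a response to metal. The set was named as MT1A, MT1E, MT1F, MT1G, MT1H, MT1M, MT1X, MT2A, MTF1 and SLC30A1, and its members were the array probes annotated with any of these 10 symbols that read above 20, the floor of the deposited values, on at least 2 of the 8 arrays. This gave 11 of 12 probes for 9 genes, out of 23860 probes for 12759 named genes that passed the same filter. No probe was annotated as MT1A, and the other MT1H probe stood at the floor on all 8 arrays. The 11 probes that passed covered 7 metallothionein genes with 8 probes, MTF1 with 1 probe and SLC30A1 with 2 probes.

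The cells were MNNG/HOS, an established osteosarcoma line derived by chemical transformation of HOS cells, and each group had 2 arrays. The groups were JQ1 (7.5 mM, as the design text gives the unit), rapamycin (12.5 nM), JQ1 with rapamycin at those concentrations, and DMSO, the solvent control. JQ1 is an inhibitor of BET bromodomain proteins, which read acetylated histones, and rapamycin inhibits the growth kinase complex mTORC1. The sources used here do not state how long the cells were treated. Separate cultures for the arrays of a group are not mentioned in the labels, and p-values therefore reflect array-to-array spread, which may be technical.

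Metallothioneins are small, cysteine-rich proteins of the cytoplasm that bind zinc and copper and, on exposure, cadmium. In human cells the MT1 and MT2A genes lie side by side on chromosome 16. When free zinc rises, MTF1 binds it through its zinc fingers, moves to metal response elements in the promoters of metallothionein genes and of SLC30A1, and starts their transcription. Metallothionein genes also respond to glucocorticoids, heat, oxidants and other stresses. Because MT1 transcripts resemble each other closely and the probe sequences were not used here, RNA of 1 MT1 gene may have contributed to the signal of another's probe.

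The array values were even in scale, with means of 455.5 to 481.6 per array and 55.7% to 58.6% of probes at the floor. Of 8 markers of osteoblasts and mesenchymal cells, 6 were above the filter. COL1A2, a chain of type I collagen, and ALPL, alkaline phosphatase, stood at the floor on all arrays. CDH11 read 1787.2 and 1548.2 under JQ1, 1118.2 and 1811.7 under rapamycin, 1065.7 and 1260.9 under the combination, and 3025.8 and 3970.7 under DMSO. RUNX2 read 39.3 and 37.0 under JQ1, 95.7 and 75.5 under rapamycin, 35.3 and the floor under the combination, and 96.5 and 110.9 under DMSO. SPARC was instead higher with JQ1, at 488.8 and 784.0 alone and 397.2 and 636.2 in the combination. It read 293.7 and 340.0 under rapamycin and 278.3 and 317.4 under DMSO. The 4 endothelial markers did not pass. Of the epithelial markers, EPCAM and KRT18 passed while CDH1 and KRT19 stood at the floor, and their sum was 451.3 to 507.8 under JQ1, 485.0 to 512.5 under rapamycin, 480.7 to 579.3 under the combination and 591.4 to 634.1 under DMSO. Of the 2 hepatic markers APOA1 stood at the floor, and ALB read 48.5 and 57.7 under JQ1, 26.8 and 48.1 under rapamycin, 85.2 and 97.5 under the combination, and 35.1 and 45.8 under DMSO. The haematopoietic markers summed to 230.7 to 367.9 under JQ1, 111.3 to 223.8 under rapamycin, 88.8 to 205.4 under the combination and 340.6 to 536.1 under DMSO. Of the 4 with a probe, CD14 alone passed and PTPRC, CD3E and HBB stood at the floor on all arrays. The part of these marker differences in the results that follow was not tested.

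The authors' non-normalized table names its arrays differently from the value table tied to the sample records. Each of its 8 columns had 1 counterpart among the value columns, at a rank correlation of 0.9970 or more across 14640 probes that exceeded the floor everywhere (0.9795 or less for any other pair), but 6 of the 8 counterparts bore another group or replicate name. Under that table's header, its DMSO arrays are the DMSO and JQ1 arrays of replicate 1 in the value table, and its combination arrays are the rapamycin and combination arrays of replicate 2. The header runs group by group, but its counterparts run replicate by replicate. They are DMSO, JQ1, rapamycin and combination for replicate 1, then again for replicate 2. Every header group thus joins arrays from 2 value-table groups, and the columns headed JQ1 match rapamycin and combination arrays. If the value table's names are right, differences under the other naming compare mixed groups and not treatments. The columns headed rapamycin and DMSO are then DMSO and JQ1 arrays, and those headed JQ1 and combination are rapamycin and combination arrays. If the header's names are right instead, every comparison by the value table's names mixes groups, and so does every call made from it below. How the names came to differ was not tested. The value table was used throughout, and differences under the other naming are given for each comparison.

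The sequences of the promoters were set out first because the known regulator of these genes acts through short elements in them. The 250 bases before the annotated start site (RefSeq, GRCh38.p14) were at hand for 5 of the member genes, and those of MT1H, MT1X, MT2A and SLC30A1 are shown to set metallothionein genes that differed in level between groups beside MT2A and the exporter, for which no difference passed the test. Capitals mark the core of the metal response element, TGCACNC or TGCGCNC, on either strand. The MT1H stretch is chr16:56669564-56669813, MT1X chr16:56682220-56682469 and MT2A chr16:56608334-56608583, all on the plus strand, and SLC30A1 is chr1:211579162-211579411 on the minus strand.
MT1H: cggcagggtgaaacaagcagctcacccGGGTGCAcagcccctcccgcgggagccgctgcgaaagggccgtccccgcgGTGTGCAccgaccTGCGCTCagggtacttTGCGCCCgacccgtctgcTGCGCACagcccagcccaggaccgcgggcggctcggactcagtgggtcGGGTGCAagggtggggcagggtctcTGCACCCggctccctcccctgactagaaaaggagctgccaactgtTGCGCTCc
MT1X: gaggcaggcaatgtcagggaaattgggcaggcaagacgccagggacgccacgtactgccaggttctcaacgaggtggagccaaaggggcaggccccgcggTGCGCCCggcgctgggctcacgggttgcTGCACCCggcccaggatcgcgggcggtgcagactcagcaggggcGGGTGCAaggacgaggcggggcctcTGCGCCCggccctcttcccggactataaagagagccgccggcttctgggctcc
MT2A: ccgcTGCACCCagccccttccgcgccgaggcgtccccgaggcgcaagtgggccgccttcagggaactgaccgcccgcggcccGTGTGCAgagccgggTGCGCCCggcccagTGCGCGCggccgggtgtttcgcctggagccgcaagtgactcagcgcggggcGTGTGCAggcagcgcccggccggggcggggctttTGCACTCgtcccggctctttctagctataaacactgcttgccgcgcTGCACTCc
SLC30A1: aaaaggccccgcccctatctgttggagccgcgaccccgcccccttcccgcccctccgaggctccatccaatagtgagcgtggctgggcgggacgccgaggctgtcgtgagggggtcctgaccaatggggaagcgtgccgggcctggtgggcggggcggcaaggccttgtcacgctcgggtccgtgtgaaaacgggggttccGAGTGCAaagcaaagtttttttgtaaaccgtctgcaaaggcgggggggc

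The MT1H stretch held 8 cores, MT2A held 7, MT1X held 4 and SLC30A1 held 1, and the MTF1 promoter held 0. Across 35116 RefSeq promoters the median was 0 cores and 24.8% held at least 1. At least as many cores as in MT1H were present in 6 of those promoters. At least as many as in MT2A were present in 11, and at least as many as in MT1X in 130. Each count includes the gene itself. The antioxidant response element core, TGACNNNGC on either strand, was present once each in MT1X, MT2A and SLC30A1 and not in MT1H or MTF1, against 10.9% of all promoters. A core is a match of letters and not a measured binding site. MT2A, with 7 cores, had no called difference in any comparison below, while MT1H, with 8, and MT1X, with 4, rose under the combination. The MT2A probe read near the top of the array range, where a rise may be compressed. MT1G and MT1M also rose, but their promoters were not at hand, and a link between cores and response was not tested. MT1B, a neighbour of these genes, had 3 cores in its promoter and read at the floor on all 8 arrays.

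**Figure D1:**
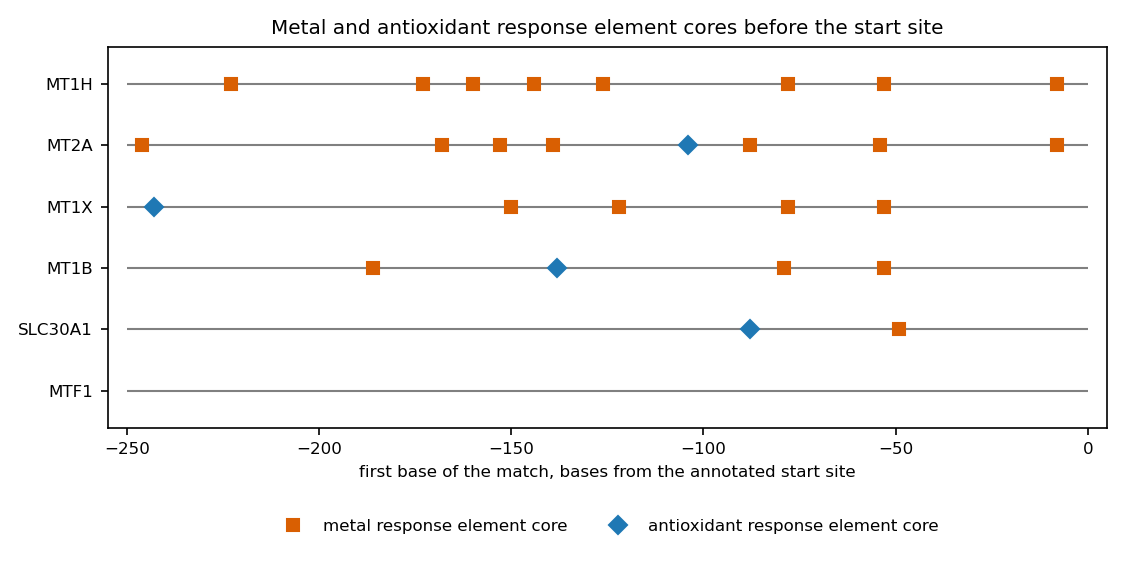
Position of metal response element cores (squares) and antioxidant response element cores (diamonds) in the 250 bases before the annotated start site of 5 member genes and MT1B; the x axis is the first base of each match in bases from the start site, and each row is a promoter. MT1H holds 8 metal response element cores, MT2A 7, MT1X 4, MT1B 3, SLC30A1 1 and MTF1 0.

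Under the combination of drugs, the metallothionein genes MT1G, MT1H, MT1M and MT1X rose by 5.37-fold to 12.3-fold against DMSO. MT1E, MT1F and MT2A did not pass the test, and the MT2A probe was near the top of the array range in every group. These 4 were among 11 member probes tested, and 1.79% of all 23860 probes were called higher in the same comparison (4.46% in either direction) by limma at a Benjamini-Hochberg adjusted p under 0.05. The levels below are normalized intensities on a linear scale, which compare a probe with itself across arrays and not with another probe. In RNA from a whole culture, a change in the share of cells that express a gene and a change in RNA per cell cannot be told apart.

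MT1G, which encodes a metallothionein 1 isoform, read 2277.2 and 5367.9 under JQ1, 4757.4 and 5310.0 under rapamycin, 17837.3 and 12455.0 under the combination, and 1046.6 and 1649.4 under DMSO. Both combination arrays were above all other arrays, both DMSO arrays were below all others, and the JQ1 and rapamycin arrays overlapped. The combination was 3.50 ± 0.44 above DMSO on the log2 scale (SE, limma), an 11.3-fold difference with an adjusted p of 0.0147. In both replicates taken alone the difference had the same sign, at 4.09 in replicate 1 and 2.92 in replicate 2.

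MT1H read 193.3 and 834.3 under JQ1, 930.8 and 1341.0 under rapamycin, 2599.2 and 1997.3 under the combination, and 120.8 and 282.1 under DMSO. The combination arrays were the highest 2 of the 8, and the JQ1 and DMSO arrays overlapped. The combination was 3.63 ± 0.70 above DMSO (log2, SE), 12.3-fold, with an adjusted p of 0.041.

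MT1X, another metallothionein 1 isoform, read 12882.5 and 30709.7 under JQ1, 19621.3 and 22214.8 under rapamycin, 28607.1 and 25947.2 under the combination, and 3466.5 and 6348.2 under DMSO. Each of the 6 drug-treated arrays exceeded both DMSO arrays, and the single highest array was JQ1 replicate 2. The combination was 2.54 ± 0.45 above DMSO (log2, SE), 5.81-fold, with an adjusted p of 0.0323.

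MT1M read 533.2 and 1238.8 under JQ1, 2198.5 and 3192.6 under rapamycin, 4496.2 and 3007.3 under the combination, and 505.1 and 927.9 under DMSO. The JQ1 and DMSO arrays overlapped at the low end and the rapamycin and combination arrays overlapped at the high end. The combination was 2.43 ± 0.49 above DMSO (log2, SE), 5.37-fold, with an adjusted p of 0.045.

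The second MT1E probe read 20 and 79.9 under JQ1, 57.6 and 80.2 under rapamycin, 121.9 and 263.4 under the combination, and 20 and 23.6 under DMSO. It was near the floor in the DMSO arrays and highest in both combination arrays. Its difference between the combination and DMSO, 3.04 ± 0.66 (log2, SE), had an adjusted p of 0.0531, and 0.00904 with the replicate number as a block; since 1 DMSO array lay at the floor, its size is bounded by that floor. The brighter MT1E probe read 19377.9 and 22391.7 under JQ1, 20060.8 and 18742.3 under rapamycin, 24726.3 and 16040.3 under the combination, and 12301.8 and 14517.7 under DMSO. All drug-treated arrays were above both DMSO arrays, but the combination differed from DMSO by only 0.58 (log2) at an adjusted p of 0.259, so the MT1E probes gave differences of unequal size.

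MT1F read 1115.2 and 2001.8 under JQ1, 4179.3 and 5553.3 under rapamycin, 3681.3 and 4061.7 under the combination, and 911.3 and 2759.3 under DMSO. Unlike MT1G, its highest group was rapamycin alone, and the JQ1 arrays lay within the range of the DMSO arrays. The combination was 1.29 ± 0.53 above DMSO (log2, SE), which did not pass the test at an adjusted p of 0.231. MT2A, the metallothionein gene expressed broadly in human tissues, read 39092.0 and 31430.4 under JQ1, 36775.5 and 29346.5 under rapamycin, 31591.9 and 30956.8 under the combination, and 34010.7 and 36928.2 under DMSO. Its differences against DMSO were -0.02, -0.11 and -0.18 ± 0.21 for JQ1, rapamycin and the combination (log2; adjusted p 1, 0.959 and 0.702), with a 95% interval of -0.67 to 0.31 for the combination. The highest value of any probe was at least 41228.1 on every array. MT2A was therefore close to the upper end of the measured range, where a further rise may be compressed. MT1X, which read up to 30709.7 under JQ1 and 28607.1 under the combination, reached or neared the MT2A values. No saturation flags were at hand.

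**Figure D2:**
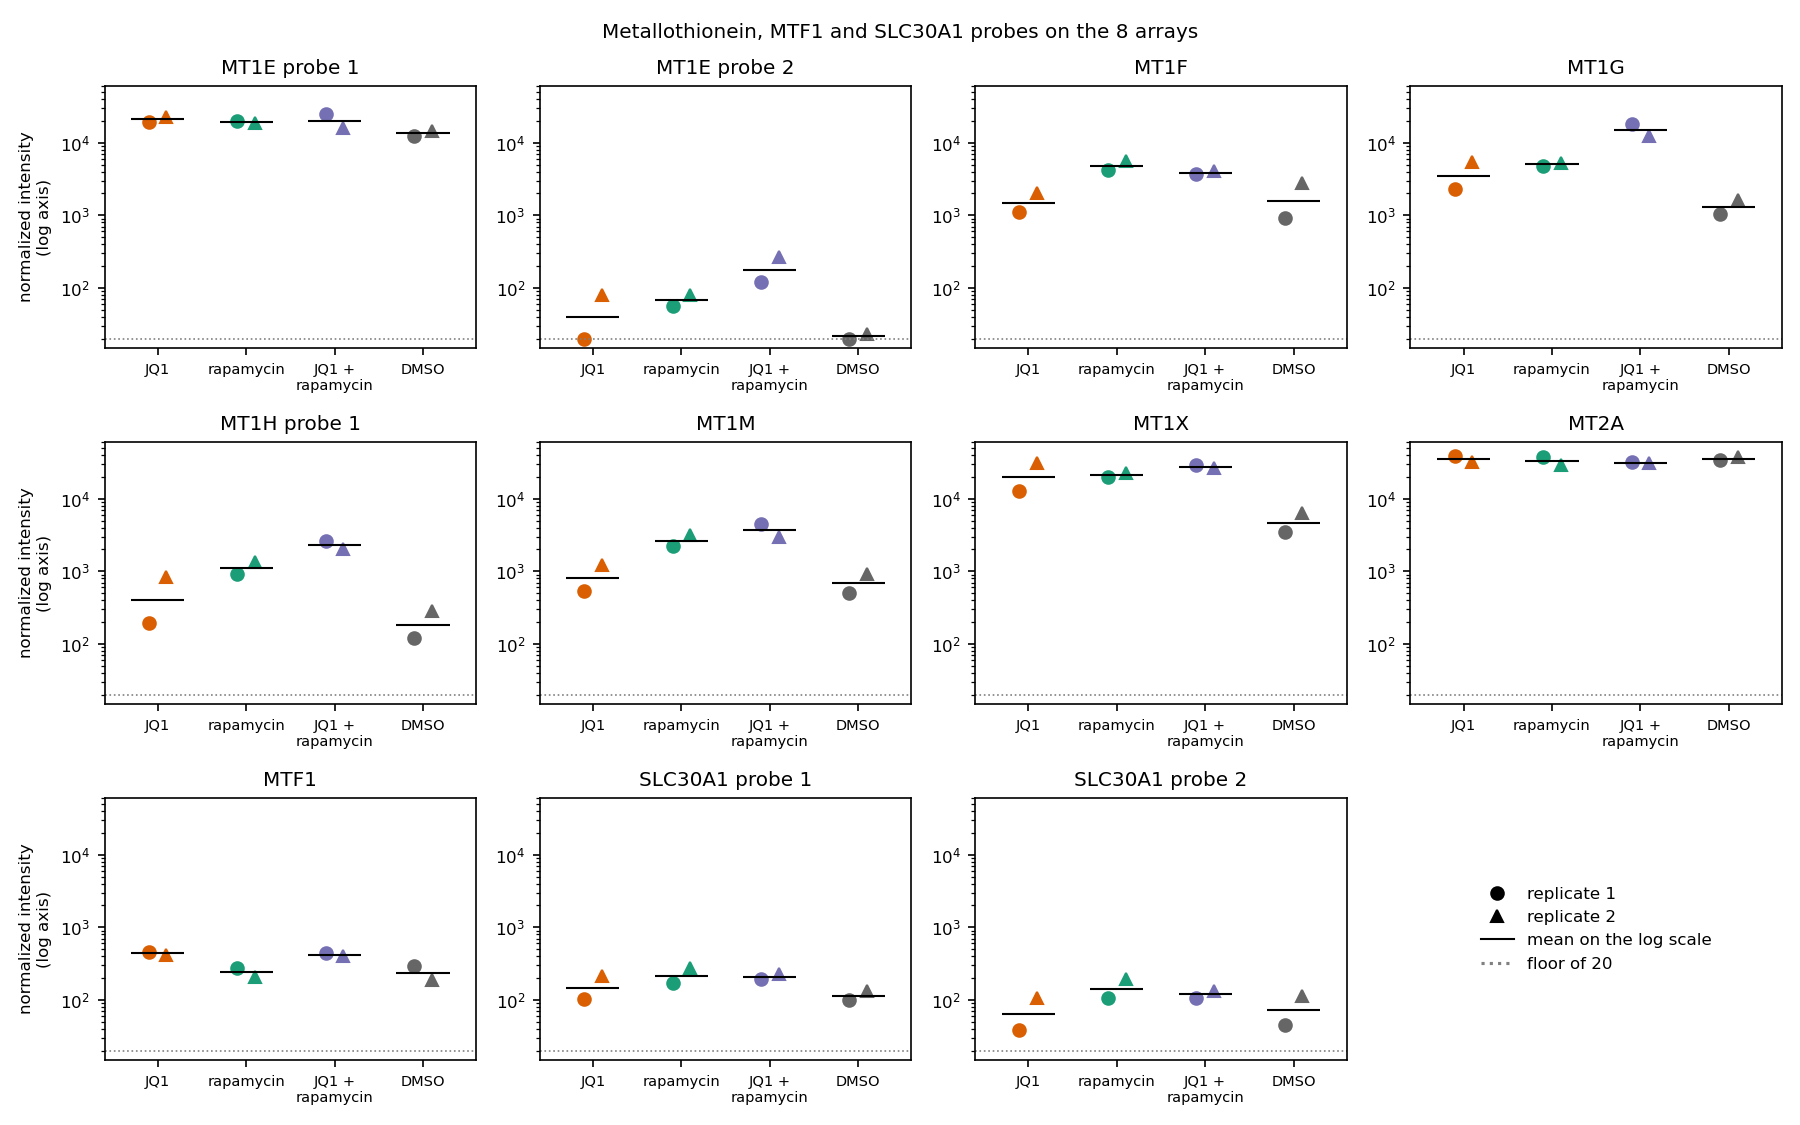
Normalized intensity (log axis) of the 11 member probes on the 8 arrays, by group along the x axis; circles are replicate 1, triangles replicate 2, horizontal bars the mean on the log scale, and the dotted line is the floor of 20. MT1G and MT1H are highest on both combination arrays, MT1G and MT1X are lowest on both DMSO arrays, 1 JQ1 array overlaps the DMSO arrays for MT1H and 1 is the highest of all for MT1X, while MT2A stays between 29346.5 and 39092.0 in all groups.

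Over the 8 metallothionein probes, 4 were called higher under the combination and none lower, and 7 had both combination arrays above both DMSO arrays, against 21.4% of all probes. MT2A had both combination arrays below both DMSO arrays, against 22.9% of all probes. The median log2 difference over the 8 probes was 2.48, against 0.00 over all probes tested. With the replicate block, 6 member probes were called in this comparison (12.6% of all probes in either direction), the second MT1E probe and MTF1 being added to the 4. The calls depended on single arrays: without either DMSO, rapamycin or combination array the count was 0, and without either JQ1 array it was 4. The differences themselves were 3.18 to 3.83 for MT1G, 3.01 to 4.24 for MT1H, 1.99 to 2.86 for MT1M and 2.10 to 2.97 for MT1X over the 8 omissions. Without either rapamycin array they stayed at 3.50, 3.63, 2.43 and 2.54, so there the adjusted p moved and the differences did not. Under the array names of the non-normalized table, 3 member probes were called, namely MT1F (2.29, adjusted p 0.028), MT1M (2.69, 0.035) and the second SLC30A1 probe (1.74, 0.0426), while MT1G (2.28, 0.267), MT1H (3.44, 0.0962) and MT1X (1.69, 0.364) were not.

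With JQ1 alone, the metallothionein probe with the largest difference from DMSO was MT1X, at 2.08 ± 0.45 (log2, SE; 4.24-fold, adjusted p 0.0805 by limma). It passed the test with the replicate block, at an adjusted p of 0.0231. MT1G was 1.41 above DMSO and MT1H 1.12 (adjusted p 0.179 and 0.567), and MT1M, at 0.25, and MT1F, at -0.09, had JQ1 arrays overlapping the DMSO arrays. None of the 11 member probes was called (1.74% of all probes were), and 3 of the 8 metallothionein probes had an unadjusted p under 0.05, against 15.4% of all probes. With the block 2 were called, MT1X and MTF1, against 6.12% of all probes. Under the array names of the non-normalized table no member was called for JQ1 either, but the differences from DMSO were 2.78 for MT1M, 2.06 for MT1F, 3.47 for MT1H, 2.42 for MT1G and 1.57 for MT1X (adjusted p 0.15 to 0.689). With the names of the value table, the median over the 8 metallothionein probes was 0.76, and 3 of them had both JQ1 arrays above both DMSO arrays (18.2% of all probes). The second array was above the first for 7 of the 8 probes under JQ1, 6 under rapamycin, 2 under the combination and 8 under DMSO, and the median of the second minus the first on the log2 scale was 1.23, 0.29, -0.26 and 0.76 in that order, against 0 over all probes in each group.

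With rapamycin alone, MT1 probes stood 1.45-fold to 6.05-fold above DMSO, and no member passed the test. MT1H was 2.60 ± 0.70 above DMSO (log2, SE; 6.05-fold, adjusted p 0.322), MT1X 2.15 (0.258), MT1M 1.95 (0.292), MT1G 1.94 (0.274) and MT1F 1.60 (0.411). The rapamycin arrays were above both DMSO arrays for 7 of the 8 metallothionein probes (16.7% of all probes), MT2A being the exception. The median difference over the 8 was 1.79. By limma, 0 of 11 member probes were called, as were 0.0126% of all probes, and 6 of the 8 metallothionein probes had an unadjusted p under 0.05, against 9.31% of all probes; with the block the count was again 0 (0.021% of all probes). With the non-normalized table's array names no member was called for rapamycin, and the differences from DMSO were 1.66 for MT1H, 0.86 for MT1X, 1.02 for MT1M, 0.87 for MT1G and 1.22 for MT1F. If the value table's names are right, that comparison holds no rapamycin array. It then sets the DMSO and JQ1 arrays of replicate 2 against those of replicate 1. The JQ1, rapamycin and combination comparisons share the same DMSO arrays, and rapamycin was not tested against JQ1.

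**Figure D3:**
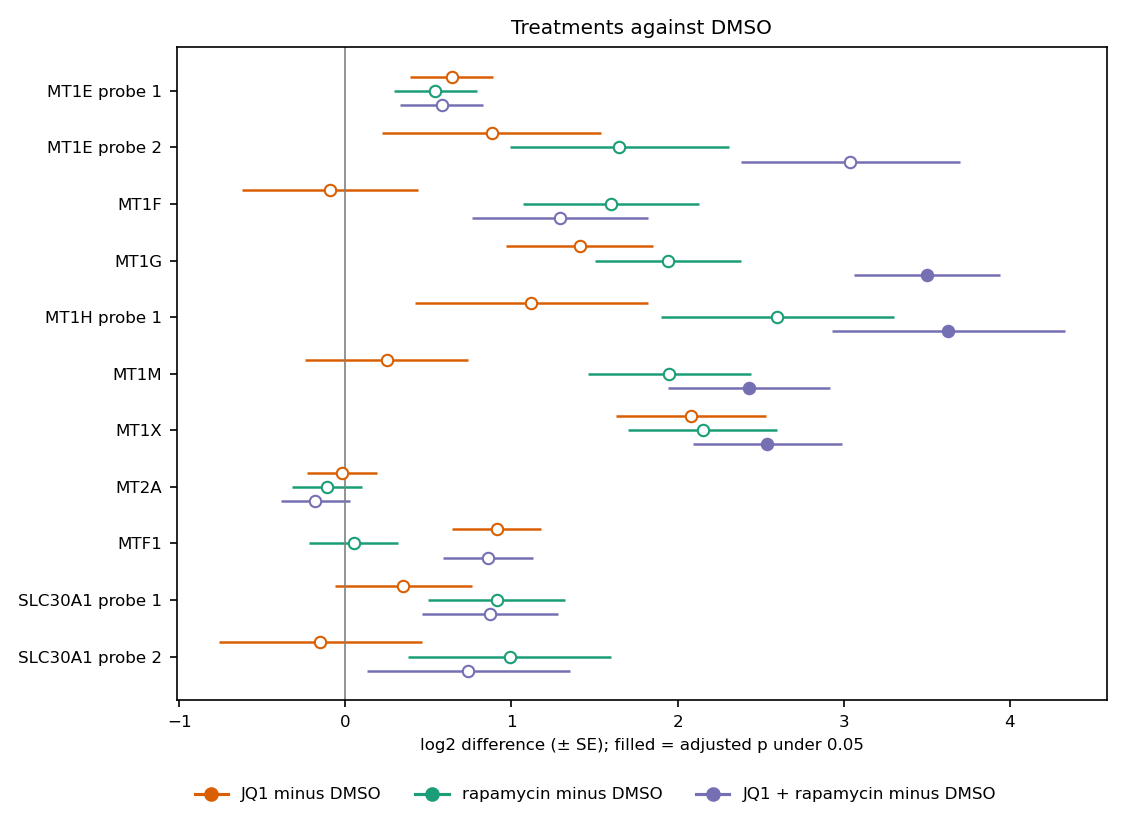
Difference from DMSO in log2 units (x axis) with its SE for each member probe (rows), under JQ1, rapamycin and the combination; filled points have a limma adjusted p under 0.05. The filled points are MT1G, MT1H, MT1M and MT1X under the combination, at 2.43 to 3.63, and the MT2A points lie at -0.18 to -0.02.

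Set against JQ1 alone, the combination was higher by 2.50 for MT1H, 2.18 for MT1M, 2.16 for the second MT1E probe, 2.09 for MT1G and 1.37 for MT1F on the log2 scale, and by 0.45 for MT1X. The combination arrays did not overlap the JQ1 arrays for 5 of the 8 metallothionein probes (15.5% of all probes were higher without overlap). No probe of the 23860 was called in this comparison, with or without the block (0%), and 5 of the 8 metallothionein probes had an unadjusted p under 0.05 by limma, against 8.05% of all probes. These differences were near 0 under the array names of the non-normalized table, at -0.04 for MT1H, -0.09 for MT1M, -0.14 for MT1G and 0.22 for MT1F, and the second MT1E probe was at 0.85. If the value table's names are right, that comparison sets replicate 2 of rapamycin and the combination against replicate 1 of the same groups. It then holds no difference between treatments.

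Set against rapamycin alone, the combination was 1.57 ± 0.44 higher for MT1G (log2, SE; adjusted p 0.144), 1.03 for MT1H, 0.47 for MT1M and 0.38 for MT1X, while MT1F was at -0.32 with both combination arrays below both rapamycin arrays (20.8% of all probes were lower without overlap). Of the 8 metallothionein probes, 4 had both combination arrays above both rapamycin arrays, against 19% of all probes. None of the 11 member probes was called by limma, with or without the block, against 1.48% of all probes (6.13% with the block), and 1 metallothionein probe, MT1G, had an unadjusted p under 0.05, against 15.8% of all probes. Under the array names of the non-normalized table no member was called, and the differences were 1.41 for MT1G, 1.77 for MT1H, 1.67 for MT1M, 0.83 for MT1X and 1.07 for MT1F. The 95% intervals of the difference were 0.53 to 2.61 for MT1G and -0.68 to 1.45 for MT1X.

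The interaction term asks whether the combination differs from the sum of the single-drug differences on the log2 scale. For MT1X the single-drug differences of 2.08 and 2.15 stood beside 2.54 for the combination. The MT1X interaction was -1.70 ± 0.63 (SE, unadjusted p 0.0324, adjusted p 1 by limma). The MT1X readings under the drugs went up to 30709.7, inside the MT2A range, where a further rise may be compressed. The part of this in the MT1X interaction was not tested. For MT1G the 2 single-drug differences were 1.41 and 1.94 beside 3.50, with an interaction of 0.16 ± 0.62, and for MT1H they were 1.12 and 2.60 beside 3.63, with an interaction of -0.09 ± 0.99. The other member probes had interactions of -0.60 to 0.52. No probe of the 23860 was called (0%), with or without the block, and 944 (3.96%) had an unadjusted p under 0.05. By the non-normalized table's own naming, the interaction was -0.74 for MT1X, -1.02 for MT1G and -1.70 for MT1H (adjusted p 1 for each). The interval for MT1G, -1.32 to 1.63, leaves room for a departure from additivity of more than 2-fold in either direction.

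**Figure D4:**
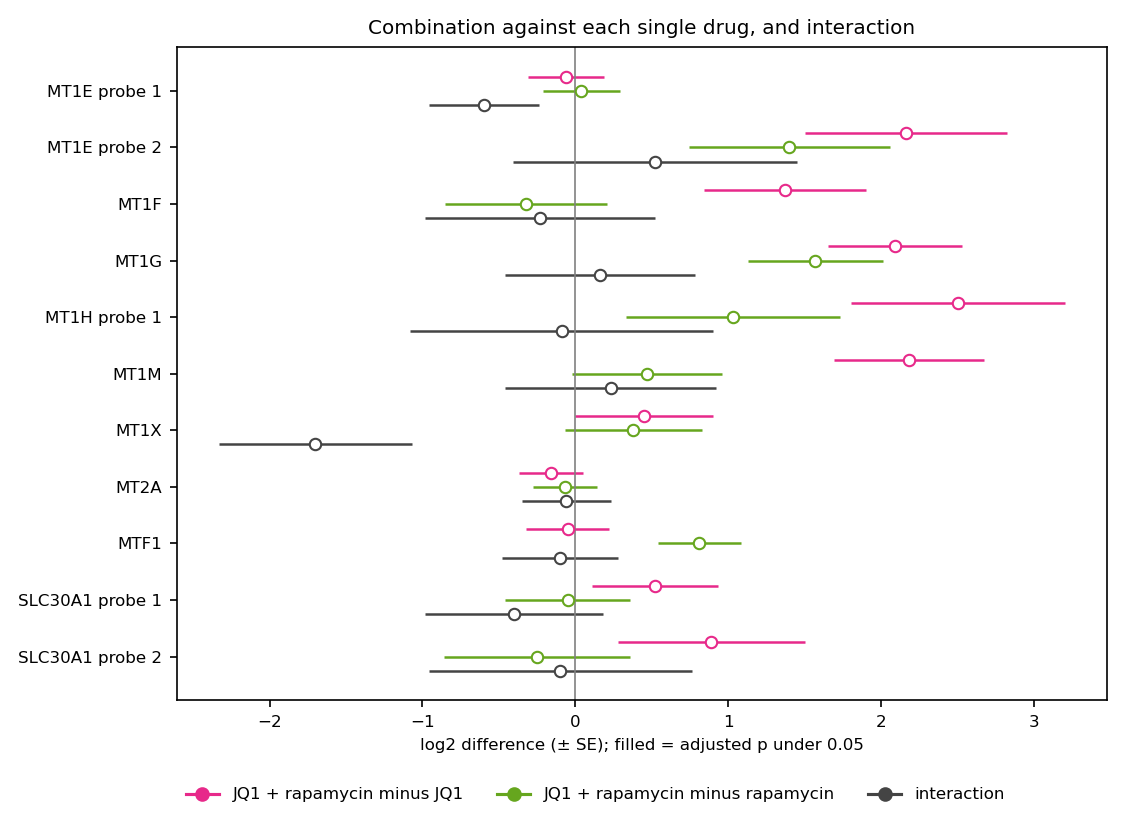
Difference of the combination from JQ1 and from rapamycin, and the interaction of the drugs, in log2 units (x axis) with the SE, for each member probe (rows); no point is filled since none had a limma adjusted p under 0.05. MT1X stands at -1.70 for the interaction, and MT1G at 2.09 against JQ1 and 1.57 against rapamycin.

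MTF1, the zinc-sensing transcription factor, read 456.6 and 421.9 under JQ1, 277.3 and 209.5 under rapamycin, 448.3 and 398.4 under the combination, and 290.6 and 187.8 under DMSO. All 4 arrays that had JQ1 were above all 4 that did not. The differences from DMSO were 0.91 ± 0.27 under JQ1 (log2, SE; 1.88-fold, adjusted p 0.158 by limma, and 0.0467 with the block), 0.05 ± 0.27 under rapamycin (adjusted p 1), and 0.86 ± 0.27 under the combination (0.126, and 0.0374 with the block). The combination exceeded rapamycin by 0.81 (adjusted p 0.202). By its means, MTF1 followed another order of groups than MT1G, MT1H, MT1M and MT1X. Their mean log2 levels were lowest under DMSO and then higher under JQ1, rapamycin and the combination, in that order. Neighbours in that order overlapped: JQ1 and rapamycin for MT1G and MT1X, DMSO and JQ1 for MT1H and MT1M, and rapamycin and the combination for MT1M. The order was not tested. Under the array names of the non-normalized table, MTF1 was -0.19 from DMSO under JQ1 and -0.24 under the combination.

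SLC30A1, which carries zinc out of the cell across the plasma membrane, was measured by 2 probes. The first read 102.0 and 212.3 under JQ1, 169.1 and 279.4 under rapamycin, 193.4 and 228.7 under the combination, and 98.7 and 134.8 under DMSO. The second read 39.3 and 108.0 under JQ1, 106.0 and 193.6 under rapamycin, 107.9 and 135.4 under the combination, and 45.7 and 114.3 under DMSO. In both probes the rapamycin group had the highest mean, and neighbouring groups in the order of means overlapped. For the first probe both rapamycin arrays and both combination arrays were above both DMSO arrays (16.7% and 21.4% of all probes). The second probe overlapped DMSO in each comparison. Within replicates 1 and 2, rapamycin differed from DMSO by 0.78 and 1.05 (first probe) and 1.21 and 0.76 (second probe). The combination differed by 0.97 and 0.76, and by 1.24 and 0.25. The differences from DMSO were 0.35 and -0.15 under JQ1, 0.91 and 0.99 under rapamycin, and 0.87 and 0.74 under the combination (log2; adjusted p 0.296 and 0.579 for the combination by limma), and none passed the test. Named as in the non-normalized table, the arrays gave 0.93 and 1.35 under JQ1, 0.74 and 1.28 under rapamycin, and 1.42 and 1.74 under the combination, where the second probe was called as given above. By the value table's names, that rapamycin comparison holds no rapamycin array.

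Among related genes, the other metallothioneins were at or near the floor. Of 8 listed, 5 had a probe and only MT1L, a transcribed relative of the MT1 genes, passed the filter, with a highest reading of 48.5 and no call in any comparison. MT1B, MT3, MT4 and MT1IP stood at the floor on all arrays.

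Of 10 further zinc exporters and intracellular zinc transporters, 5 passed the filter. Of these, 1 was called higher and 1 lower under the combination, against 4.46% of all probes in either direction. SLC30A3, which loads zinc into vesicles, read 121.1 and 130.8 under JQ1, 26.5 and 42.5 under rapamycin, 126.3 and 140.8 under the combination, and 20 and 31.6 under DMSO. All arrays with JQ1 were above all arrays without it. It rose by 2.32 under JQ1 (log2; adjusted p 0.0271 by limma) and by 2.41 under the combination (0.0152), and was 1.99 higher in the combination than under rapamycin (0.038); 1 DMSO array was at the floor. SLC30A6, a zinc transporter of the Golgi, read 26.2 and 21.9 under the combination, against 54.3 and 47.8 under DMSO, and fell by 1.09 (log2, adjusted p 0.0332). Of 14 zinc importers of the SLC39 family 12 passed, and 0 were called by limma in any comparison, the block included. At an unadjusted p under 0.05 there were 2 under rapamycin against DMSO (9.31% of all probes) and 0 in the other comparisons. The combination's differences from DMSO went from -0.98 for SLC39A11 to 0.50 for SLC39A9.

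Of 11 genes of copper handling 10 passed the filter. SLC31A1, the plasma membrane copper importer, read 312.8 and 390.5 under JQ1, 202.7 and 220.5 under rapamycin, 293.9 and 321.6 under the combination, and 150.4 and 143.4 under DMSO. It rose under JQ1 (1.25 on the log2 scale, 2.38-fold, adjusted p 0.0351 by limma) and under the combination (1.07, 2.09-fold, 0.0332), and the arrays of each drug group were above both DMSO arrays. CCS, the copper chaperone of superoxide dismutase, was 1.12 above DMSO under the combination (adjusted p 0.0653, and 0.0183 with the block). Of 10 iron genes 6 passed and 0 were called by limma under JQ1, rapamycin or the combination against DMSO. Unadjusted p-values under 0.05 numbered 1, 0 and 2, against 15.4%, 9.31% and 20.7% of all probes. The iron importer SLC11A2 had a level 2.84-fold lower under the combination than under DMSO (adjusted p 0.072 by limma, and 0.00639 with the block). With the block 2 iron genes were called lower under the combination and 1 under JQ1. The shares of all probes called in either direction were 12.6% and 6.12%.

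All 12 genes of the heavy-metal stress list passed the filter, and 1 was called higher under the combination (1.79% of all probes). With the block 3 were called higher and 1 lower, against 12.6% of all probes in either direction. Under JQ1 against DMSO 0 were called by limma, with 5 at an unadjusted p under 0.05 (15.4% of all probes), and 1 was called lower with the block (6.12% of all probes called in either direction). HSPA1A, an inducible HSP70 chaperone, read 1811.7 and 2446.4 under JQ1, 849.2 and 1415.2 under rapamycin, 5456.5 and 2252.2 under the combination, and 698.5 and 363 under DMSO, and rose 6.96-fold under the combination (2.80 on the log2 scale, adjusted p 0.0354 by limma). HSPA1B, a near-identical gene whose RNA its probe may not distinguish, differed by 2.32 (adjusted p 0.0705, and 0.0176 with the block). HMOX1, heme oxygenase, read 20 and 50 under JQ1, 262.1 and 574.4 under rapamycin, 113.6 and 60.7 under the combination, and 43.3 and 70.8 under DMSO. Its rapamycin arrays were above all others, but the difference of 2.81 from DMSO did not pass the test (adjusted p 0.258).

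All 12 genes of the glucocorticoid list passed, and 2 were called higher under the combination (1.79% of all probes). With the block 4 were called higher and 1 lower, against 12.6% of all probes in either direction. Under JQ1 against DMSO 0 were called by limma, with 4 at an unadjusted p under 0.05 (15.4% of all probes). With the block 2 were called higher (6.12% of all probes in either direction), DUSP1 (adjusted p 0.0384) and CRISPLD2 (0.0314). For CRISPLD2, 1 DMSO array was at the floor. DUSP1, a phosphatase of MAP kinases, read 780.6 and 857.7 under JQ1, 532.7 and 557.9 under rapamycin, 1916 and 1234.7 under the combination, and 227.2 and 362.8 under DMSO. As for MT1G, the combination was above the single drugs and these were above DMSO. The single drugs differed in order, with JQ1 above rapamycin for DUSP1 and the JQ1 mean below the rapamycin mean for MT1G, where they overlapped. DUSP1 rose 5.36-fold under the combination (2.42 on the log2 scale, adjusted p 0.0146 by limma). SGK1, a kinase regulating ion transport, was 1.94-fold higher under the combination (adjusted p 0.0469). It read 1054.8 and 910.2 under JQ1, 1886.8 and 2026.3 under rapamycin, 1427.4 and 1512.2 under the combination, and 845.3 and 676.2 under DMSO. Its highest group was thus rapamycin alone, 2.59-fold above DMSO (adjusted p 0.167 by limma). For rapamycin against DMSO 0 of the list were called, with 5 at an unadjusted p under 0.05 (9.31% of all probes) and a median of 0.69. NR3C1, the glucocorticoid receptor itself, was at -1.43 under the combination (adjusted p 0.0749 by limma, and 0.0281 with the block). Since 1 combination array was at the floor for NR3C1, the size of that difference is bounded by the floor. The medians of these lists for the combination against DMSO were -0.06 for zinc exporters, -0.08 for zinc importers, 0.55 for copper, 0.14 for iron, 0.54 for heavy-metal stress and 0.43 for glucocorticoid genes, against 2.48 for the metallothionein probes and 0.00 for all probes. Of the calls in these lists, those of SLC30A3 under JQ1 and against rapamycin, of SLC31A1 under JQ1, and of SLC30A6, HSPA1A and SGK1 under the combination were lost at each of the 8 omissions of a single array; under the combination, SLC30A3 was called on leaving out any JQ1 or rapamycin array, and SLC31A1 and DUSP1 on leaving out either JQ1 array, and at no other omission. Under the array names of the non-normalized table, the combination's differences from DMSO were 0.75 for SLC30A3, -0.58 for SLC30A6, 0.21 for SLC31A1, 0.71 for HSPA1A, 0.87 for DUSP1 and 0.61 for SGK1. Under those names SLC30A3 was 0.51 and SLC31A1 0.11 above DMSO under JQ1, and SLC30A3 was 0.10 higher in the combination than under rapamycin.

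The genes whose profile over the 8 arrays was most like the mean profile of the 8 metallothionein probes were chosen by Pearson correlation among 12494 genes, as a description. They were EPOR, the erythropoietin receptor (r = 0.984), DUSP5, a phosphatase of the kinase ERK (0.977), WDR19, a protein of transport within cilia (0.976), PNPLA8, a phospholipase (0.973), SPSB3 (0.973) and KLHDC2 (0.973), the last a substrate adaptor of a ubiquitin ligase. The 8 arrays share 4 groups and 2 replicate numbers, and 92 genes exceeded 0.9. DUSP5 read 1348.6 and 1853.4 under JQ1, 1977.8 and 2508.3 under rapamycin, 3115.2 and 2678.5 under the combination, and 666.6 and 1136.8 under DMSO. The second array was the higher within JQ1, rapamycin and DMSO, and the lower within the combination, as for MT1G and MT1H. Since DUSP5 was chosen by its correlation over the same 8 arrays, this likeness is part of the choice and not a further result.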

How the data were processed

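Biotin-labelled RNA of 8 samples was read on Illumina expression arrays per the labels' protocols, although the design text names another maker. The authors deposited linear intensity in 2 tables, a non-normalized table, in which 28.3% to 30.3% of values per array were below 0, and a value table with a floor of 20. The sources used here do not name the method by which the value table was normalized. Samples were grouped by their titles. The value table was used, on the log2 scale. Of 47304 probes, 30102 had 1 gene symbol in the platform annotation, 8 several and 17194 none; 30063 matched RefSeq (GRCh38.p14) by gene number. Probes above 20 on at least 2 arrays (23860) were fitted with limma 3.58.1 (R 4.3.3; lmFit, eBayes, 1 mean per group, all 8 arrays) and adjusted by Benjamini-Hochberg, called under 0.05. The fit was tested on simulated data. Deviations from group means correlated between same-numbered replicates at 0.363 to 0.471 in every pair of groups, so a replicate block was an alternative. Other alternatives were other filters, centring, an offset of 50, 1 probe per gene, the non-normalized table, fewer groups and omitted arrays. Members and gene lists were chosen with earlier results of these data known. Every member probe was named; from each list, genes called in any comparison and some of the largest and smallest differences were named. The number of arrays limits the precision.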

Additional observations from a re-analysis of the deposited data

How the results depend on the processing

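The count of called member probes for JQ1 against DMSO was 0, and 2 with the replicate block. For the combination against DMSO it was 4; it was 0 without a filter on low values, where all 47304 probes were tested, and 0 with only the arrays of the groups compared. Leaving out each array in turn gave 0 to 4. It was 6 with the replicate block, 5 with arrays centred, where the second MT1E probe was added (adjusted p 0.0339), and 3 with log2(value + 50), where MT1M was at an adjusted p of 0.0502. Without either JQ1 array MT1M was at 0.0582 and the second MT1E probe at 0.0447. The matched non-normalized signals gave 4, and that table's own array names gave 3. The counts for rapamycin against DMSO, for the combination against JQ1 and against rapamycin, and for the interaction stayed at 0 under every alternative run. Apart from MT1X and MTF1 under JQ1, and the second MT1E probe and MTF1 under the combination, the block changed no call of a member probe. It moved the count over all probes to 1461 for JQ1 against DMSO (414 without it), 3018 for the combination against DMSO (1064) and 1462 for the combination against rapamycin (354). None of the 4 calls for the combination against DMSO changed sign under an alternative; the MTF1 differences called with the block, 0.91 under JQ1 and 0.86 under the combination, were -0.19 and -0.24 under the non-normalized table's own array names. Where calls were lost, the cause was not tested, except that an omitted array or group leaves fewer samples. The signal is limited at the floor for the second MT1E probe and near the top of the range for MT2A, and may be for MT1X under the drugs.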
